A study of Mus musculus with 9 samples.

Results

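Cycling tumor cells carrying fusion-allele transcripts were droplet barcodes chosen by 2 readouts of the same library. The rule asked for at least 1 unique molecular identifier (UMI, which marks 1 captured RNA molecule) from the introduced allele, summed over luciferase (Luc), the internal ribosome entry site (IRES) and the fusion itself (ZFTA-RELA_Fusion_1). It also asked for a UMI in at least 3 of 8 cycle genes, namely Mki67, Top2a, Cenpf, Birc5, Cdk1, Ube2c, Pclaf and Nusap1. The rule found 1845 such barcodes among 35482 kept in 5 tumor libraries, and 64617 barcodes were kept in all 9 libraries of the series. Tumors 1 to 5 gave 6, 295, 9, 989 and 546 of them, or 0.211, 4.96, 0.134, 9.90 and 5.46% of their kept barcodes, with a mean of 4.13% ± 4.09 (SD, n = 5 tumors). Members were therefore plentiful in tumors 2, 4 and 5 and almost missing from tumors 1 and 3, and any value for those 2 tumors rests on a handful of barcodes.

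The 5 EP ZFTA-RELA tumors came from NestinCreERT2;Fus1 mice and the 4 control brains from NestinCreERT2;TdT mice, all 6 to 8 weeks old, and both groups carry the Nestin-driven Cre. Fus1 is a conditional allele that the study describes as Nestin-driven. In it a lox-stop-lox cassette precedes a C11orf95 (ZFTA)–RelA fusion, targeted to Rosa26 in C57BL/6J embryonic stem cells. The Cre opens it in embryonic radial glia. To found the colony 4 targeted clones were injected, and any descendant of a recombined radial glial cell can carry the open allele. Whether a cell that carries it also transcribes it may depend on Nestin promoter activity, which was not tested. The labels give TdT in the genotype of the controls alone, while the study describes dissecting tumors by TdTomato fluorescence. The tissue was dissociated, cleared on Percoll, stained with DAPI and anti-Ter119, sorted with no tumor marker named and run on the 10x 5′ droplet platform. The study also names anti-CD45 and shows a gate for extravascular live cells, positive for CD45 and negative for Ter119, from tissues that include brain. It does not state whether that gate was used for these libraries. The labels number the libraries and do not tie each to 1 mouse, so n counts libraries, called tumors here, and their spread may be technical in part. The study names fewer mice for its single-cell data of tumor tissue than there are tumor libraries, and whether any libraries share a mouse is not known.

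ZFTA–RELA joins a zinc-finger protein to RELA, the transactivating subunit of NF-κB, and is the driver of supratentorial ependymoma of this type. A dividing cell passes from G1, where D cyclins with Cdk4 release E2F from the retinoblastoma protein, into S phase, where the Mcm helicase, Pcna and ribonucleotide reductase copy the genome, and then into G2 and mitosis, where cyclin B with Cdk1, the Aurora kinases and Cdc20 separate the chromosomes. Radial glia are the dividing progenitors of the embryonic brain and share Sox2, Nes and Fabp7 with many glial tumors.

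Over all deposited barcodes, tumor libraries held 14967680 to 69411387 UMIs and control libraries 101060608 to 178086164. The kept control barcodes, on which the next values rest, held 16985846, 28026198, 21557131 and 28462965 UMIs. Their medians were 1957, 3471.5, 3078 and 3730 UMIs per barcode. The same rule found 0 members among 8130, 7428, 6427 and 7150 kept control barcodes, which allows shares of up to 0.0369, 0.0404, 0.0467 and 0.0420% (3 counts, covering counting error only). Luc and ZFTA-RELA_Fusion_1 had 0 UMIs in the kept barcodes of every control, while IRES had 0, 2, 11 and 16 UMIs. Luc and the fusion feature were thus read in tumor libraries alone, while the IRES feature also had UMIs in controls. The source of the control IRES UMIs was not tested. Control brains had 5, 6, 10 and 9 cycling barcodes, or 0.0615, 0.0808, 0.156 and 0.126%. Any 2 tumors shared 3 to 31 barcode sequences, and 1 member barcode sequence occurred in both tumor 4 and tumor 5.

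The members carried far more RNA than the barcodes around them. Their median was 9638.5, 8351, 14751, 8684 and 5310.5 UMIs in tumors 1 to 5, against 1780, 2189, 812, 4279 and 1772 in the other kept barcodes of the same tumor. Carriers outside the cycle had medians of 2795, 4460.5, 2411, 5140 and 2479 UMIs and cycling barcodes with no allele UMI 3492, 3215.5, 1324, 3680.5 and 2109. Members were deepest in every tumor, and a deep barcode has more chances to meet both conditions of the rule. Depth thus moved with membership throughout, and its part in the gene comparisons was not tested apart from the depth-matched and thinned values given with them. The rule was applied again after thinning, so barcodes that lost UMIs of the rule changed class and thinned values do not measure depth alone. Malat1, a nuclear RNA that takes a large share in damaged cells, took 1.04 to 1.21% of the members' UMIs and 1.79 to 3.97% of the others'. Cycling barcodes with no allele UMI had 1.14, 1.09, 2.27, 0.910 and 1.11% in tumors 1 to 5, so a low share was not particular to the members.

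Most of the allele's UMIs in members were luciferase. Luc gave 9, 402, 18, 3082 and 565 UMIs in the members of tumors 1 to 5, IRES 0, 97, 0, 333 and 209, and the fusion feature 0, 75, 0, 174 and 123. In all, 1619 of 1845 members had a Luc UMI, 500 an IRES UMI and 322 a fusion UMI, and the 6 and 9 members of tumors 1 and 3 were called from Luc alone. Summed over the features, the allele stood at 152, 230, 140, 397 and 277 UMIs per 1000000 of the pooled members (counts per 1000000, CPM) in the members, values that the rule raises because it asks for a UMI. Non-cycling carriers, which also need an allele UMI and were shallower, stood higher in every tumor, at 344, 316, 268, 439 and 411 CPM. Just inside the rule, 799 members (43.3%) had a single allele UMI, and the highest number was 23, in tumor 4. Just outside it lay 30, 386, 85, 368 and 1149 cycling barcodes with no allele UMI.

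The cycle condition had a margin of its own. Members with exactly 3 of the 8 genes numbered 445 (24.1%), members with all 8 numbered 386 (20.9%), and carriers with 2 genes, just outside, numbered 0, 111, 12, 398 and 326 in tumors 1 to 5. Sox2, a stem cell transcription factor that the rule did not use, stood at 192, 114, 228 and 197 CPM in the 3-gene members of tumors 2 to 5 and at 175, 182, 210 and 205 CPM in the carriers with 2 genes. The margin did not separate these neighbors by Sox2, and tumor 3 had only 2 members with exactly 3 genes.

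The 8 chosen genes themselves were all read in the members of every tumor. Mki67, the Ki-67 antigen of dividing cells, stood at 1184, 514, 257, 410 and 464 CPM in tumors 1 to 5, against 16.9, 59.7, 16.2, 25.3 and 111 CPM in the other kept barcodes. Pclaf, a Pcna-associated factor of S phase, stood at 440, 381, 1316, 286 and 310 CPM, and Cenpf, a kinetochore protein of G2 and mitosis, at 1861, 853, 288, 372 and 738 CPM. Pclaf was thus highest and Cenpf lowest in the 9 members of tumor 3, and Mki67 and Cenpf were highest in the 6 of tumor 1.

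Lists of 24 S-phase and 24 G2/M genes, none of them in the rule, placed the members along the cycle. S-phase genes outnumbered G2/M genes in 16.7, 45.1, 66.7, 42.8 and 34.2% of the members of tumors 1 to 5, and G2/M genes outnumbered S-phase genes in 83.3, 50.8, 22.2, 50.9 and 57.5%. Most genes of the rule peak in G2 and mitosis, so this balance is conditioned by the choice of members. Barcodes of both kinds were found in each of the 3 tumors with many members, in roughly even numbers in tumors 2 and 4 and with more of the G2/M kind in tumor 5. A median member had UMIs of 11.5, 8, 14, 8 and 4 S-phase genes and of 18.5, 7, 13, 10 and 6 G2/M genes. Ribonucleotide reductase subunit Rrm2 stood at 203, 139, 608, 186 and 129 CPM, and cyclin B1 (Ccnb1) at 338, 123, 93.5, 110 and 101 CPM.

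The start regions of genes that peak in G2 and mitosis often hold a CCAAT box and a cell-cycle homology region (CHR), and those of S-phase genes E2F sites, which is why 4 such regions are printed. Each line gives the 150 bases before the start of transcription (RefSeq, GRCm38.p6), 5′ to 3′ on the gene's strand, with capitals for any match to CCAAT, to the CHR letters TTTGAA or to the E2F-type letters TTNNCGC on either strand. The 4 genes were chosen after the search because their windows hold the letters. Uhrf1 has another start region in the set, at chr17:56304163-56304312, whose 150 bases hold 2 CCAAT and 0 E2F-type matches.
Cdk1, which drives entry into mitosis, at chr10:69352913-69353062, minus strand: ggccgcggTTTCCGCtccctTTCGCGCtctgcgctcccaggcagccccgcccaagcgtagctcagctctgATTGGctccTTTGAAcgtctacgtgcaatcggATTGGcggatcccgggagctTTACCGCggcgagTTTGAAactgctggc
Cdc20, which activates the anaphase-promoting complex, at chr4:118437344-118437493, minus strand: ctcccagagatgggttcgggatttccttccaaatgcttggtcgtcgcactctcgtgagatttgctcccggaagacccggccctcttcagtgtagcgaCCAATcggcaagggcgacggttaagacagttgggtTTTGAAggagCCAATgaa
Mcm6, a helicase subunit, at chr1:128359706-128359855, minus strand: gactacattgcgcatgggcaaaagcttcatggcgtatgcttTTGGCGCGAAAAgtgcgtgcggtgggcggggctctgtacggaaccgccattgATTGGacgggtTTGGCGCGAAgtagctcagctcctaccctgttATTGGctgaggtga
Uhrf1, which brings Dnmt1 to newly copied DNA, at chr17:56303187-56303336, plus strand: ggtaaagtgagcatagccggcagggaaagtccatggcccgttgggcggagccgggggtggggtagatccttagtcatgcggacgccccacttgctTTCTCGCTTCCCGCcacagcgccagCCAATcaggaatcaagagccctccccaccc
Of the 24 genes in each list, 21 G2/M and 20 S-phase genes were matched to a start region in the set used. Over the 250 bases before the start, CCAAT was found in 16 of these 21 G2/M genes (76.2%), in 13 of these 20 S-phase genes (65.0%) and in 37.5% of all 27025 genes. The E2F-type letters were found in 5 G2/M genes (23.8%), 11 S-phase genes (55.0%) and 19.1% of all genes, and the CHR letters in 6 (28.6%), 3 (15%) and 18.3%. A match to the E2F-type letters can overlap a CCAAT box. Of the 8 genes of the rule, 4 held both CCAAT and the CHR letters in the window, as did 6.45% of all genes. These shares describe the windows only.

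Barcodes with an allele UMI were more often cycling than barcodes without one. Both calls belong to the rule, so the values are a description with no test. Because depth sets both calls, every barcode was thinned to 2000 UMIs and shallower ones were left out. The rule was then applied again, so a barcode that lost its allele UMIs counted as a non-carrier. In tumor 4, with 0 barcodes left out, the number of carriers went from 5865 to 3639. Cycling barcodes then made up 2 of 37 carriers (5.41%) in tumor 1, 72 of 509 (14.1%) in tumor 2, 2 of 42 (4.76%) in tumor 3, 330 of 3639 (9.07%) in tumor 4 and 148 of 811 (18.2%) in tumor 5. The shares among non-carriers were 1.39, 10.0, 2.62, 8.36 and 15.3%. The difference averaged 2.79 percentage points ± 1.42 (SD, n = 5 tumors) and was above 0 in 5 of 5 tumors. It was smallest in tumor 4, at 0.713 points, where no barcode was too shallow to enter. Without thinning the shares were 7.79 against 1.08%, 22.9 against 8.28%, 6.00 against 1.30%, 16.9 against 8.91% and 26.2 against 14.5%, a difference of 9.14 points ± 3.99. Over 100 draws of the thinning, chosen after seeing the data, the mean difference was 2.46 points and a single draw gave 0.677 to 4.57. The difference was above 0 in 87, 100, 66, 97 and 97 of the draws in tumors 1 to 5, and ran from -3.07 to 7.38 points in tumor 3, so its sign was not stable in tumors 1 and 3.

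**Figure D1:**
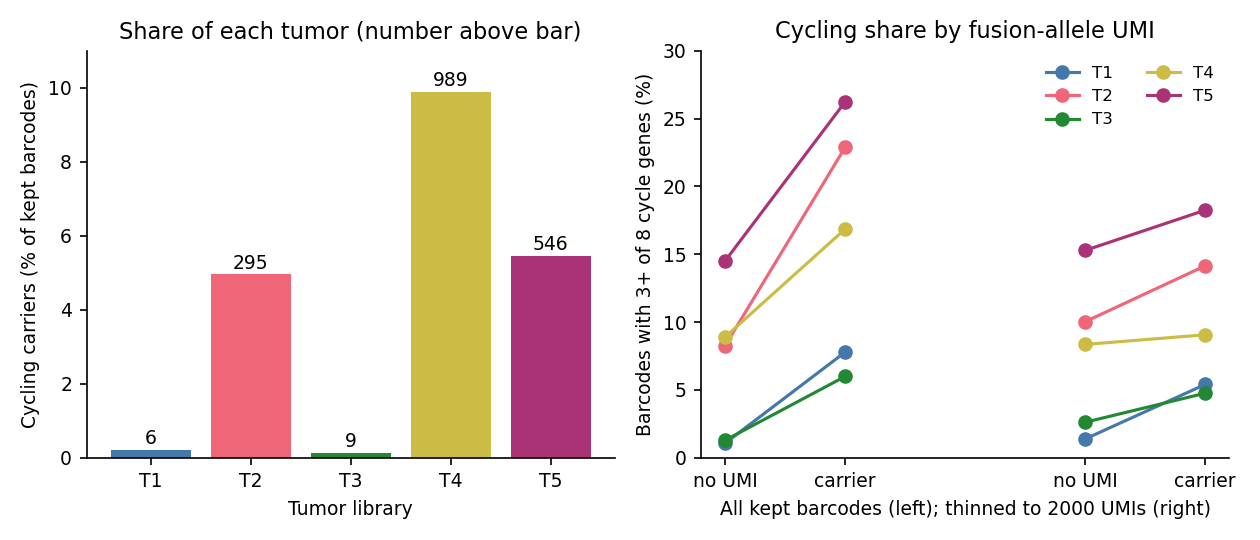
Left, cycling carriers as a percentage of the kept barcodes of each tumor library (T1 to T5), with their number above each bar. Right, the percentage of barcodes with at least 3 of 8 cycle genes among barcodes without and with an allele UMI, for all kept barcodes and after thinning to 2000 UMIs. Each line is 1 tumor, and thinning, with the rule applied again, brings the mean difference from 9.14 to 2.79 percentage points.

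Stricter forms of the rule shrank that difference, and several settings turned it in 1 or 2 tumors. With at least 4 cycle genes it was 0.798 points and above 0 in 4 of 5 tumors, and with at least 2 allele UMIs it was 0.507 points and above 0 in 3 of 5. At 1000 and 4000 UMIs per barcode it was 1.11 and 5.76 points, with tumor 3 at -1.79 points in the former. Tumor 3 was at -0.15 points with at least 500 genes per barcode, and tumor 1 at -1.66 points with a mitochondrial limit of 10%. With immune-marked barcodes left out it was 2.30 points, with tumor 4 at -1.70 points.

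The level of the allele was also higher in cycling barcodes when these were picked by cycle genes alone, again a description of values the rule used. Summed over Luc, IRES and the fusion feature it was 44.6 CPM in cycling and 13.3 CPM in other barcodes of tumor 1, 131 and 91.8 in tumor 2, 40.1 and 14.3 in tumor 3, 330 and 286 in tumor 4 and 131 and 101 in tumor 5. The log2 ratio (pseudocount 1 CPM) averaged 0.84 ± 0.67 (SD, n = 5 tumors) and was above 0 in 5 of 5. The 3 tumors with many members gave log2 ratios of 0.51, 0.20 and 0.38, and tumors 1 and 3, with 9 and 18 allele UMIs in their cycling barcodes, gave 1.67 and 1.43. With immune-marked barcodes left out, tumors 2, 4 and 5 gave 0.30, 0.08 and 0.31. After thinning to 2000 UMIs they gave 0.53, 0.06 and 0.24. IRES alone gave a mean log2 ratio of -0.14 and the fusion feature alone -0.22, since both had 0 UMIs in the cycling barcodes of tumors 1 and 3, and in tumors 2, 4 and 5 the fusion feature gave 0.55, -0.10 and 0.04.

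The level did not climb steadily with the number of cycle genes. In tumor 2 it was 83.9 CPM in barcodes with none of the 8 genes, 162 CPM with 5 and 100 CPM with all 8. In tumor 4 it was 279, 387 with 4 genes and 293 with all 8, and in tumor 5 it was 95.9, 151 with 4 genes and 134 with all 8. The highest level lay at 4 or 5 genes in each of these tumors.

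**Figure D2:**
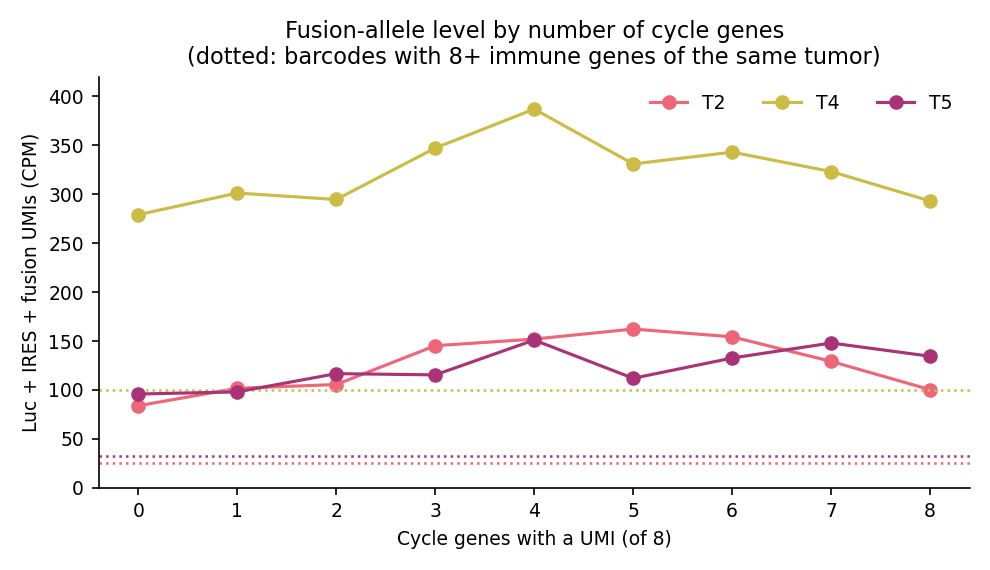
Summed CPM of Luc, IRES and the fusion feature (vertical axis) in the kept barcodes of tumors 2, 4 and 5 (T2, T4, T5) by the number of the 8 cycle genes with a UMI, each point 1 pool of barcodes. Dotted lines give the level in barcodes with a UMI in at least 8 of 10 immune genes of the same tumor, 25.6, 100 and 33.0 CPM, below every point of that tumor.

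Allele UMIs were also read in barcodes that look like immune cells, which do not descend from radial glia. Among immune-marked barcodes, those with a UMI in at least 5 of 10 microglia and macrophage genes (among them C1qa, C1qb, C1qc, Csf1r, Cx3cr1, P2ry12, Tyrobp, Fcer1g and Ctss), 1.43, 10.3, 1.01, 35.2 and 13.1% had an allele UMI in tumors 1 to 5 at median depths of 2019, 2162, 954.5, 4202 and 1933 UMIs. Among the other kept barcodes the shares were 2.93, 26.7, 2.65, 66.4 and 21.8% at 1728.5, 2354.5, 777, 4620.5 and 1807 UMIs. The share was lower in immune-marked barcodes of every tumor, but an allele UMI did not mark tumor cells alone. Immune-marked barcodes made up 1, 31, 0, 144 and 33 of the members, 209 in all (11.3%), and 150 members were among the barcodes with the top doublet scores.

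Immune and endothelial markers were low in the members as a group. The 10 immune genes summed to 254, 1343, 93.5, 1022 and 509 CPM in the members of tumors 1 to 5 and to 5699, 9350, 11160, 6818 and 4090 CPM in the other kept barcodes, and 4 of the 10 had no UMI in the members of tumor 1 and of tumor 3. Endothelial genes summed to 16.9, 68.1, 0, 77.2 and 145 CPM against 652, 525, 885, 343 and 342 CPM. Immune RNA was thus highest in the members of tumor 2. Other lists did not all stand lower. Neuroblast genes summed to 1489, 440, 2617, 324 and 1441 CPM in members and 430, 468, 982, 455 and 1447 CPM in the others. OPC (oligodendrocyte precursor) genes summed to 67.7, 776, 818, 931 and 286 against 197, 580, 367, 1237 and 344 CPM, so they were higher in tumors 2 and 3 alone. Ependymal genes summed to 0, 42.1, 0, 11.3 and 69.5 against 100, 71.3, 11.1, 13.2 and 31.6 CPM, higher in tumor 5 alone. Hemoglobin and other erythroid genes summed to 0, 32.5, 911, 252 and 65.8 CPM in members and 20.1, 5531, 166644, 267 and 2475 CPM in the other barcodes. In tumor 4 the erythroid sum of the members was close to that of the others and above that of non-cycling carriers (18.0 CPM) and cycling non-carriers (9.24 CPM). In tumors 2 and 5 the members stood below both, as non-cycling carriers had 371 and 419 CPM and cycling non-carriers 1253 and 533 CPM. Without thinning edgeR called 0 of 4 erythroid genes against either class, at median log2 ratios of -0.21 and -1.96. After thinning to 2000 UMIs it called all 4 hemoglobin genes higher in members than in these 2 classes, at medians of 2.46 and 1.65. With all 5 tumors unthinned it called 4 lower than in cycling non-carriers, at a median of -3.74.

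Growth genes that are silent on 1 parental copy were read in the members of every tumor. Igf2, a fetal growth factor, stood at 931, 2957, 818, 3396 and 1341 CPM in tumors 1 to 5, H19, the noncoding RNA beside it, at 305, 1623, 1558, 1070 and 420 CPM, and Dlk1, a Notch-related ligand of progenitors, at 1929, 2443, 1885, 4416 and 1035 CPM. UMIs of all 3 were found together in 33.3, 90.8, 55.6, 87.4 and 47.1% of the members. Tumors 2 and 4 were high and tumor 5 low for each of these RNAs among the tumors with many members. Cdkn1c, an imprinted cyclin-dependent kinase inhibitor, ran the other way, at 198 and 500 CPM in tumors 2 and 4 and 2144 CPM in tumor 5. Cycling non-carriers ran alike, with Cdkn1c at 118, 188 and 1215 CPM in tumors 2, 4 and 5. Their Igf2, H19 and Dlk1 were also lowest in tumor 5, so these differences were not particular to the members.

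The members of the tumors also differed in lineage genes. Sox2 stood at 372, 224, 210, 210 and 204 CPM. Fabp7, a radial glial fatty acid-binding protein, stood at 102, 722, 530, 1090 and 237 CPM, and Olig1, an oligodendrocyte lineage factor, at 50.8, 477, 670, 581 and 132 CPM, both lower in tumor 5 than in tumors 2 and 4. Dlx1, a homeobox factor of ventral forebrain neuron precursors, stood at 254, 0.401, 335, 3.76 and 201 CPM, and was read in 16.7, 0.339, 33.3, 1.01 and 47.4% of the members. Its relative Dlx2 followed at 67.7, 0, 319, 1.77 and 159 CPM, and neuronal tubulin Tubb3 at 0, 5.61, 421, 9.29 and 196 CPM. The members of tumor 5 were high and those of tumors 2 and 4 near 0 for both genes, a difference between single libraries with no test. The other barcodes of these tumors ran alike, with Dlx1 at 166 CPM in tumor 5 and 6.58 and 4.94 CPM in tumors 2 and 4, so the difference was not particular to the members. Foxj1, the master factor of motile cilia, was at 0, 29.6, 0, 4.42 and 8.03 CPM.

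**Figure D3:**
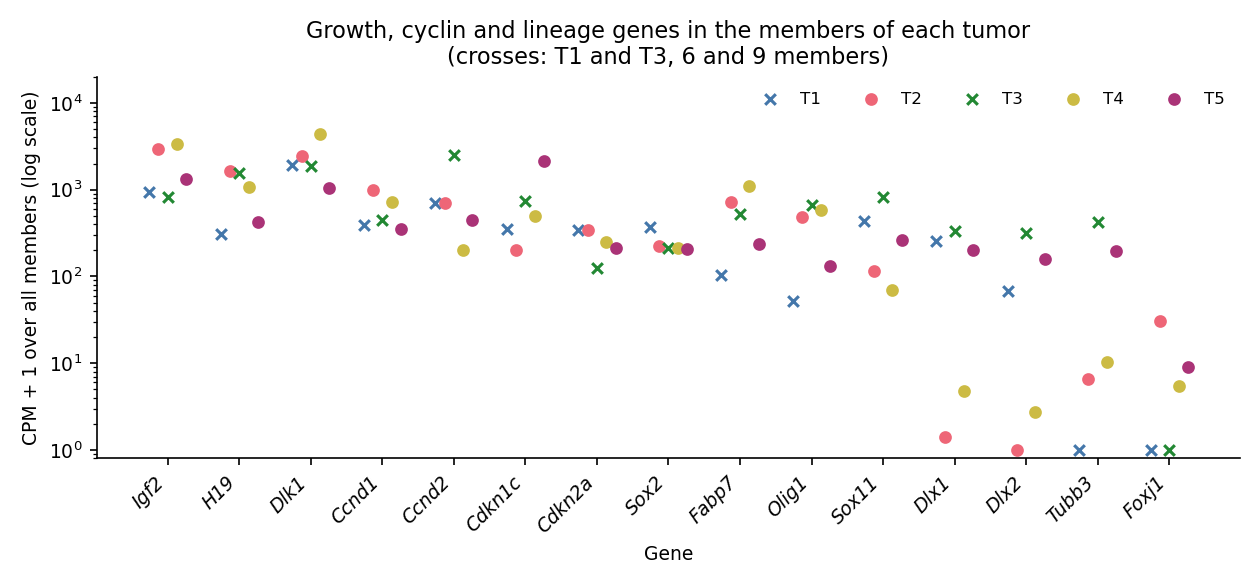
CPM plus 1 on a log axis for 15 growth, cyclin and lineage genes (horizontal axis) in the pooled members of each tumor, with crosses for tumors 1 and 3 (6 and 9 members) and filled circles for tumors 2, 4 and 5. Sox2 spans 204 to 372 CPM, and Dlx1 and Dlx2 lie far apart between tumor 5 and tumors 2 and 4.

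D cyclins differed between tumors too. Ccnd1, a known marker of these ependymomas, stood at 389, 987, 452, 720 and 352 CPM and Ccnd2 at 711, 693, 2532, 201 and 445 CPM. Cdkn2a, which encodes the Ink4a and Arf brakes of the cycle, was read in every tumor at 338, 343, 125, 248 and 212 CPM. Myc gave 76 UMIs and Mycn 293 in all members, of 14967626 UMIs.

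Of the secreted factors listed, Csf2, which encodes GM-CSF, had 0 UMIs in all members, which allows up to 0.200 CPM, Csf3 had 1 UMI and Il6 4. Vegfa, the angiogenic factor, had 1389 UMIs, and Mif, a macrophage-directed cytokine made by many cells, 7263. Vegfa stood at 93.4, 75.2 and 146 CPM and Mif at 317, 493 and 593 CPM in tumors 2, 4 and 5.

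Gene tests compared UMI sums of the members with those of other barcodes of the same tumor, in tumors 2, 4 and 5, which had at least 10 barcodes in each class. Against all other kept barcodes, edgeR's quasi-likelihood test at an adjusted p under 0.05 called 2436 of 15960 genes higher in members (15.3%) and 2609 lower (16.3%). All 24 S-phase and all 24 G2/M genes were higher, with median log2 ratios of 1.93 and 3.03 where all genes had a median of -0.06, but these lists share the program by which the members were selected and their counts describe that choice. Outside these lists, but in part of the same division program, the rising genes ranked first by p were Smc4 (log2 2.16 ± 0.14 SE), a condensin subunit, Hirip3 (2.06 ± 0.13), a histone chaperone partner, Mdk (0.95 ± 0.06), the growth factor midkine, Mns1 (2.20 ± 0.15), Ddx39 (1.59 ± 0.11) and Kifc1 (2.49 ± 0.18), a mitotic kinesin. Mdk stood at 1717, 2178 and 1152 CPM in members and 903, 1294 and 626 CPM in the others of tumors 2, 4 and 5. It was higher in members of all 3 tumors, although the lowest member value lay under the highest of the others, and its edgeR adjusted p was 0.000151.

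The falling genes ranked first by p were those of microglia and macrophages. C1qa, a complement component, was at 298, 213 and 95.4 CPM in members and 2139, 1588 and 840 CPM in the other barcodes (log2 -2.86 ± 0.09, edgeR adjusted p = 8.80e-06), and C1qb, Ctss, Tyrobp, Fcer1g and C1qc fell by 2.71 to 2.81 on the log2 scale. All 10 immune genes, 6 of 6 oligodendrocyte genes, 6 of 6 astrocyte genes and 5 of 6 neuron genes were lower. Against barcodes matched on UMIs these counts were 10, 5, 5 and 2, with the neuron median at -0.71 instead of -1.21. Immune-marked barcodes made up 11.3% of the members and 21.8% of the other barcodes. With them left out of both classes 6 of 10 immune genes were lower, at a median of -0.96 instead of -2.71. Of 6 ependymal genes, Foxj1 was called higher, while the list median was -0.31. No ependymal gene was called higher with immune-marked barcodes left out, after thinning to 2000 UMIs or with all 5 tumors. Against barcodes matched on UMIs 0 were higher and 2 lower, at a median of -1.54. With doublets removed and by DESeq2, 1 was still higher. Of 8 imprinted or growth genes tested, 4 were higher, namely Igf2 (log2 0.67), H19 (0.88), Dlk1 (0.59) and Plagl1 (0.85), and Meg3 was lower. Of 10 marker genes of fusion-driven ependymoma, Ccnd1, Ephb2, Notch1, Gli2, Lmx1b and Sox2 were higher and L1cam was lower, and with immune-marked barcodes left out Ccnd1 and Lmx1b alone were still called higher. After thinning to 2000 UMIs none of these 7 was called by edgeR, with Ccnd1 at 0.29 (adjusted p = 0.106) and Sox2 at 0.14 (adjusted p = 0.631). Rela alone of the list was then called, as lower (-1.23), and the list median went from 0.44 to -0.06. Against barcodes matched on UMIs 3 of the 10 were called higher. Igf2 (0.41) and H19 (0.42) passed after thinning, and Dlk1 and Plagl1 did not. In place of 5045 genes, the test called 2450 against barcodes matched on UMIs and 2787 without tumor 2.

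**Figure D4:**
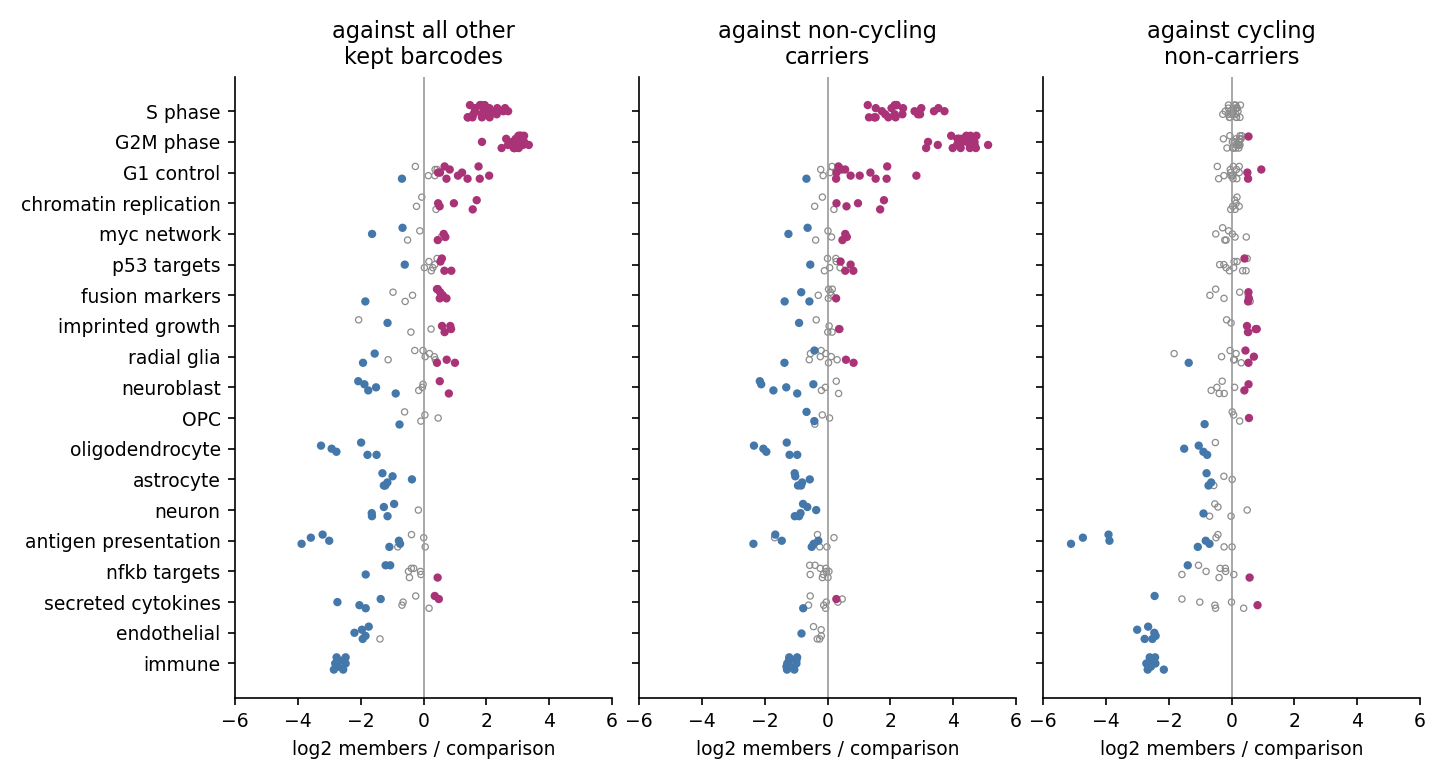
Log2 ratio of members to comparison barcodes (horizontal axis) for each tested gene of 19 lists (rows), in tumors 2, 4 and 5, against all other kept barcodes, non-cycling carriers and cycling non-carriers. Filled purple and blue points passed an adjusted p of 0.05 in edgeR as higher and lower, and open grey points did not. S-phase and G2/M genes stand right of 0 in the first 2 panels, where the rule selects on cycling, and lie around 0 in the last.

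The comparison with non-cycling carriers asked how cycling members differed from barcodes that also carried the allele. It called 2010 of 13673 genes higher (14.7%) and 1676 lower (12.3%). The smallest p among the rising genes belonged to Mad2l1 (log2 3.29 ± 0.13), a spindle checkpoint protein, Smc4 (2.44 ± 0.10), Pimreg (4.92 ± 0.21), Ncapd2 (2.43 ± 0.11), a condensin subunit, Kif23 (4.54 ± 0.21), a cytokinesis kinesin, and Espl1 (4.22 ± 0.20), the protease separase. All 48 S-phase and G2/M genes were again higher, as the choice of members requires, at medians of 2.18 and 4.29. Among the genes with printed start regions, Cdc20 was at 161, 120 and 105 CPM in members and 5.42, 3.49 and 9.6 CPM in non-cycling carriers, and Mcm6 at 118, 87.7 and 97.3 against 34.1, 11.4 and 40.7 CPM.

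Around the cycle, 12 of 17 G1 control genes were higher and 1, Cdkn2b, was lower. After thinning 8 were higher and 0 lower, and DESeq2 called 10 higher and 0 lower. The members were chosen on cycle genes, so these counts are conditioned by that choice. Against cycling non-carriers 3 of the 17 were called, Ccnd1, Ccnd3 and Cdkn1c, all higher. The E2F factors E2f1 (log2 1.88 ± 0.33) and E2f2 (2.83 ± 0.30), the kinase Cdk2 (1.53 ± 0.18) and the retinoblastoma relative Rbl1 (1.90 ± 0.17) rose by the most, and Cdk4 rose by less (0.56 ± 0.07, edgeR adjusted p = 0.000848). Kinase inhibitors rose beside them. Cdkn2c stood at 132, 107 and 86.2 CPM in members and 46.0, 66.5 and 54.7 CPM in non-cycling carriers (1.03 ± 0.15), and Cdkn2d at 123, 176 and 134 against 55.8, 66.5 and 56.5 CPM (1.37 ± 0.10). Neither gene's groups overlapped, but how many of all tested genes were also free of overlap was not counted, so this only describes these values. Ccnd1 differed little, at 987, 720 and 352 against 923, 639 and 289 CPM (0.27 ± 0.07, edgeR adjusted p = 0.0244), and Cdkn2a likewise (0.35 ± 0.09, edgeR adjusted p = 0.0215). Neither passed the test against carriers matched on UMIs, where they stood at 0.04 and 0.14.

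Of 8 listed chromatin genes, which encode DNA methylation and demethylation enzymes, Polycomb subunits and a remodeler, 5 rose. The choice of members on cycle genes conditions this count and those of the 2 lists that follow. Against cycling non-carriers edgeR called 0 of 7 chromatin genes, 0 of 8 Myc network genes and 1 of 11 p53 genes, Phlda3, as higher. Dnmt1, the maintenance DNA methyltransferase, stood at 172, 172 and 180 CPM in members and 48.6, 41.7 and 77.8 CPM in non-cycling carriers (log2 1.80 ± 0.16, edgeR adjusted p = 9.41e-05). The Polycomb subunits Ezh2 (1.68 ± 0.12), Suz12 (0.97 ± 0.10) and Eed (0.61 ± 0.13) and the remodeler Smarca4 (0.29 ± 0.09) were higher too. Of the Myc network, Ncl (0.62 ± 0.07), Npm1 (0.57 ± 0.09) and Odc1 (0.48 ± 0.09) rose while Mycl and Mxd1 fell. Trp53 and its targets Cdkn1a, Bax and Pmaip1 rose and Sesn1 fell, among 11 genes tested. After thinning, 3 of the chromatin enzymes (Ezh2, Suz12 and Dnmt1), 3 Myc network genes and 2 of the p53 genes (Cdkn1a and Bax) were still higher. The falls of Mycl, Mxd1 and Sesn1 were no longer called. DESeq2 called 0 Myc network genes and 1 p53 gene lower.

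Several lists of differentiated cells were lower in members than in non-cycling carriers, but not all. By edgeR 0 of 5 ependymal (median 0.58) and 0 of 6 pericyte genes (-0.05) passed, with 1 of each at an unadjusted p under 0.05 and 0 by DESeq2. Of 6 endothelial genes 1 was lower, at a list median of -0.29. After thinning 2 pericyte and 2 endothelial genes were lower, at medians of -1.08 and -1.60, and 0 ependymal genes passed. All 6 astrocyte genes fell, with Slc1a2, the glial glutamate transporter, at 158, 139 and 225 against 362, 358 and 405 CPM (log2 -1.05 ± 0.10, edgeR adjusted p = 0.000127) and S100b at 79.3, 97.6 and 264 against 236, 253 and 367 CPM. The smallest p among other falling genes belonged to Cst3 (-0.89 ± 0.08), Apoe (-0.72 ± 0.06), Cryab (-1.25 ± 0.11), Tnr (-1.38 ± 0.12) and Enpp2 (-1.54 ± 0.14). Cst3 and Apoe are also made by microglia and macrophages. All 6 oligodendrocyte and all 6 neuron genes fell, as did 6 of 10 neuroblast genes, among them Tubb3 (-1.72 ± 0.36) and Stmn2 (-1.31 ± 0.15), and the lineage factors Olig1 (-0.42 ± 0.08) and Sox10 (-0.67 ± 0.14). Of 12 progenitor genes 2 were higher and 2 lower, near the shares over all genes (14.7 and 12.3%). Pax6 (0.83 ± 0.14) and Nes (0.59 ± 0.11) rose, Hopx (-1.37 ± 0.27) and Ptprz1 (-0.42 ± 0.10) fell, and the other 8 did not pass the test. Many of these calls were lost when depths were brought closer. After thinning to 2000 UMIs edgeR called lower 6 of 6 astrocyte, 3 oligodendrocyte, 3 neuroblast and 1 neuron gene (Meg3), and neither Pax6 nor Nes was called, although the neuron median was -0.71 against -0.82 before thinning. Against carriers matched on UMIs (medians of 4776 and 5310.5 UMIs in tumor 5) it called lower 6 astrocyte, 5 oligodendrocyte, 4 neuroblast and 1 neuron gene, at a neuron median of -0.44.

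Immune RNA moved the same way, with 10 of 10 immune genes lower and a list median of -1.21, so members held less of it than non-cycling carriers. With immune-marked barcodes left out, the falls in astrocyte (6 of 6) and oligodendrocyte genes (6 of 6) were still called, and 5 of the immune genes were. Of 11 antigen presentation genes, 6 were lower, among them B2m (-0.50 ± 0.07) and H2-K1 (-0.44 ± 0.08), and these 2 alone were called with immune-marked barcodes left out. None of 10 NF-κB target genes passed the edgeR test in either direction, 0 had an unadjusted p under 0.05, DESeq2 called 0 as well, and their median was -0.15. After thinning, however, edgeR called 3 of them lower (Nfkbia, Ccl2 and Cxcl10), with a median of -0.81. H19 was slightly higher (0.37 ± 0.08, edgeR adjusted p = 0.0105) and Igf2 and Dlk1 did not pass. In place of 3686 genes, the test called 1528 without tumor 4 and 2290 without tumor 2, and a thinning to 2000 UMIs turned Ccnd1 and H19 to log2 ratios of -0.0095 and -0.0028.

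Against cycling barcodes without an allele UMI, fewer genes differed, with 328 of 12744 higher (2.57%) and 911 lower (7.15%). By edgeR, 0 of 24 S-phase genes (0 at an unadjusted p under 0.05, and 0 by DESeq2) and 1 of 24 G2/M genes, Ckap2, passed (7 at an unadjusted p under 0.05, and 1 by DESeq2), with medians of 0.05 and 0.19. Mcm6 stood at 118, 87.7 and 97.3 CPM in members and at 105, 69.6 and 103 CPM in these barcodes. A missing allele UMI does not show a missing allele at these depths, and which of these barcodes were tumor cells was not tested.

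Of 7 imprinted or growth genes tested, 4 were higher in the members. Thinning to 2000 UMIs ended all 4 calls, took the list median from 0.51 to 0.14 and left Dlk1 at -0.0058. Thinning also moved members that lost their allele UMIs into the comparison class, so this shrinkage does not measure depth alone. H19 stood at 1623, 1070 and 420 CPM in members and 991, 535 and 250 CPM in cycling non-carriers of tumors 2, 4 and 5 (log2 0.77 ± 0.08, edgeR adjusted p = 0.000398), Igf2 at 2957, 3396 and 1341 against 1943, 2153 and 971 CPM (0.53 ± 0.07, edgeR adjusted p = 0.00155) and Dlk1 at 2443, 4416 and 1035 against 1431, 2975 and 855 CPM (0.49 ± 0.09). Each was higher in 3 of 3 tumors. Plagl1, a zinc-finger factor of the same network of imprinted genes, followed (0.80 ± 0.18), and Cdkn1c did so at 198, 500 and 2144 against 118, 188 and 1215 CPM (0.95 ± 0.12, edgeR adjusted p = 0.00135).

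Some tumor and progenitor genes were higher too, 3 of 9 markers of fusion-driven ependymoma and 3 of 11 radial glial genes. None of these list genes passed after thinning to 2000 UMIs. Members were chosen on UMIs of a Nestin-driven allele, and whether that choice favors progenitor genes was not tested. Ccnd1 (log2 0.53 ± 0.10), Ccnd3 (0.50 ± 0.08), Sox2 (0.54 ± 0.12), Lmx1b (0.55 ± 0.14), Olig2 (0.56 ± 0.12), Slc1a3 (0.44 ± 0.11) and Hes5 (0.71 ± 0.18) were higher, and Hopx and Pdgfra were lower. The smallest p values among rising genes outside the lists belonged to Efnb1 (0.88 ± 0.09), an ephrin ligand, Thumpd3 (0.81 ± 0.10), Lhx1 (0.98 ± 0.12), a homeobox factor, and Ckb (0.50 ± 0.06), brain creatine kinase. Lhx1 stood at 138, 91.5 and 124 CPM against 72.4, 35.3 and 68.5 CPM. Icam1, an NF-κB target, rose (0.58 ± 0.10, edgeR adjusted p = 0.00816) and Tnfaip3, another, fell, among 10 tested. Vegfa rose (0.83 ± 0.17, edgeR adjusted p = 0.0147), at 93.4, 75.2 and 146 against 73.4, 26.6 and 78.5 CPM.

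Genes of immune and endothelial cells were lower. All 10 immune genes fell, at a median of -2.59, and C1qa stood at 298, 213 and 95.4 against 1522, 1676 and 552 CPM. Leaving immune-marked barcodes out of the non-carriers alone turned C1qa, by construction, to 1.46. With them left out of both classes 6 of 10 immune genes were lower, at a median of -0.95. With all barcodes in, Cd52 (-2.81 ± 0.12) and Laptm5 (-2.71 ± 0.13), both leukocyte genes, fell with the immune genes. All 6 endothelial genes fell too, with Cldn5, a tight-junction protein of brain vessels, at 40.1, 55.3 and 84.3 against 374, 552 and 151 CPM (-2.52 ± 0.41). Of 11 antigen presentation genes, 7 were lower, with Cd74 at 6.01, 22.3 and 0.926 against 42.6, 410 and 3.88 CPM (-3.92 ± 0.28).

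The calls changed with several settings, whose causes were not told apart. With immune-marked barcodes left out it called 512 genes instead of 1239, Igf2, H19, Dlk1, Cdkn1c, Ccnd1 and Icam1 were still called, and Sox2 (log2 0.38, edgeR adjusted p = 0.0645), Vegfa (0.68, edgeR adjusted p = 0.0546), Lmx1b, Olig2, Slc1a3, Hes5 and Plagl1 were not. It called 471 genes without tumor 2 and 410 without tumor 4, and after thinning to 2000 UMIs 210, when H19 (0.18, edgeR adjusted p = 0.529) and Igf2 (0.18, edgeR adjusted p = 0.244) no longer passed and Cdkn1c (0.43, edgeR adjusted p = 0.000992) did. Thinning also ended the calls of Dlk1, Plagl1, Ccnd1, Ccnd3, Sox2 (0.18, edgeR adjusted p = 0.821), Lmx1b, Olig2, Slc1a3, Hes5, Icam1, Vegfa (0.07, edgeR adjusted p = 0.973), Efnb1, Lhx1 and Ckb, and left Thumpd3 and 9 of 10 immune and 2 of 6 endothelial genes called, although the endothelial median was -2.35 against -2.59 before thinning. Matched on UMIs these barcodes stayed shallower, with a median of 4381 against 8351 UMIs in tumor 2.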

How the data were processed

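Droplet 5′ libraries of 5 tumors and 4 control brains were analyzed. The deposited matrices hold raw UMI counts, 1 per gene and barcode, that the authors made with Cell Ranger (version 7 on mm10 per the labels, 6.1.2 in the matrix headers), unnormalized and unpooled, with the introduced sequences added as features. The list of genes of control 4 was 2 entries shorter than its matrix, and its added features were read by the lists of the other samples.

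The 10000 deepest barcodes of a library were taken, and those with 200 to 6000 genes and under 15% mitochondrial UMIs were kept. Single values of 2 listed genes are not reported here, and counts over the lists include them. Doublets were not removed in the reported values. Scrublet (Scanpy 1.11.5, Python 3.11.15) scored each library, and the top 0.8% of barcodes per 1000 were left out as an alternative. CPM is per 1000000 UMIs of the pooled barcodes. UMI counts were summed per tumor and class and tested with edgeR 4.0.16 in R 4.3.3 (filterByExpr, TMM, tumor as block, quasi-likelihood F test, Benjamini-Hochberg over all genes tested, the 11 genes and features of the rule left out). The tumor is a true block, since both classes come from the same library, and the deviations of same-tumor sums correlated at 0.773 to 0.882. The planned sign-flip tests of allele share and level are not reported, since the rule used both readouts.

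The members and the gene lists were chosen with earlier results of these data known. Besides the listed genes, the text names the 6 top-ranked genes by p in each direction of a comparison that had a symbol, passed 0.05, and had the same direction in every tumor and with each tumor left out. On simulated data the edgeR test recovered changed genes. It made more false calls than its nominal rate against other barcodes and cycling non-carriers, and fewer against non-cycling carriers. Alternatives covered the barcode limit, filters, doublets, immune-marked barcodes, the rule's thresholds, thinning (with the rule applied again), each tumor left out, DESeq2 1.42.0, limma 3.58.1, scaling, low-count filter and block. All 5 tumors, barcodes matched on UMIs and repeated thinning draws were added after seeing the data. In the unthinned fits, p-values measure the spread between these libraries. Some thinned edgeR fits gave far smaller values from the same tumors. For C1qa against the other barcodes the edgeR adjusted p was 1.52e-103 thinned and 8.80e-06 unthinned. Why was not tested, so thinned calls are not on the same footing as unthinned ones.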

Additional observations from a re-analysis of the deposited data

Results flagged for a closer look

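Of 28 values tested over the 5 tumors or 4 controls, 4 had 1 sample far from the rest by Dixon's test. Its chance rate of about 1 in 20 holds for independent, normally distributed values. Several of the 28 are related and tumors 1 and 3 rest on 6 and 9 members, so the count is not compared with that rate. All 4 were levels in the members. Ccnd2 was 2532 CPM in the 9 members of tumor 3 (325 of 128374 UMIs) against 201 to 711 CPM in the members of the other tumors. Sox2 was 372 CPM in the 6 members of tumor 1 (22 of 59099 UMIs) against 204 to 224 CPM. Cdkn1c was 2144 CPM in the 546 members of tumor 5 against 198 to 732 CPM. Cycling non-carriers also had more of it in tumor 5 (1215 CPM) than in tumors 2 and 4 (118 and 188 CPM). Foxj1 was 29.6 CPM in the 295 members of tumor 2 (74 UMIs) against 0 to 8.03 CPM. The cause was not tested.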

How the results depend on the processing

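The cycling share and the level of the allele are readouts of the rule, so their direction supports nothing further. The mean log2 level was below 0 for IRES alone (-0.14) and for ZFTA-RELA_Fusion_1 alone (-0.22). Leaving out 1 tumor gave shares of members of 2.69 to 5.13%, differences in cycling share of 2.46 to 3.31 points and log2 levels of 0.63 to 1.00. Counts of called genes moved more. Against the other barcodes (5045 genes) thinning gave 2283, UMI matching 2450 and leaving out 1 tumor 2787 to 4378. Against non-cycling carriers (3686) thinning gave 1423, at least 2 transgene UMIs 2061, DESeq2 2298 and leaving out 1 tumor 1528 to 4129. Against cycling non-carriers (1239) thinning gave 210, leaving out immune-marked barcodes 512, leaving them out of the comparison class alone 369, DESeq2 734, no low-count filter 2144 and leaving out 1 tumor 410 to 1748. With no replicate block the pairing of classes within a tumor was lost and edgeR called 126, 265 and 0 genes, the last with 702 at an unadjusted p under 0.05, while the blocked DESeq2 fit called 734. Thinning reversed Gli2 (-0.24) and Vegfa (-0.080) against the other barcodes, Ccnd1 (-0.0095), Gad1 (0.099) and H19 (-0.0028) against non-cycling carriers, and Dlk1 (-0.0058) and Gja1 (0.049) against cycling non-carriers, where at least 2 transgene UMIs reversed Rsph1 (-0.025). Leaving immune-marked barcodes out of the cycling non-carriers alone reversed, by construction, C1qa (1.46), C1qb (1.63), C1qc (1.74), Cd52 (0.0093), Csf1r (1.27), Ctss (1.38), Cx3cr1 (1.53), Fcer1g (1.41), Laptm5 (1.02), P2ry12 (1.10) and Tyrobp (1.18). Elsewhere the cause was not tested. With every tumor of 5 in the fit the counts were 5023, 3475 and 1291. As to depth, a median member of tumor 5 had 5310.5 UMIs, and 799 of 1845 members had a single allele UMI.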
